A study of Homo sapiens with 6 samples.

Results

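The ERBB receptors, the MET receptor and the EGF-family ligands were described in HCT116, a human cell line established from a colorectal carcinoma. The 10 genes were chosen by name and family (EGFR, ERBB2, ERBB3, MET, AREG, EREG, TGFA, HBEGF, BTC and EPGN), with no threshold on their values, and all 10 were found among the 58938 entries of the deposited table. RNA was sequenced in 6 libraries, in 2 groups of 3. Vector cells, labelled as wild type, are the controls, and MST3 cells carry an expression plasmid for MST3, a kinase encoded by STK24. Both groups were transfected by lipofection at 60% density and collected at 30 hours in a transient transfection, so any untransfected cells were measured with the others. Whether replicates came from separate cultures is not stated in the labels, and each p-value therefore rests on library-to-library spread that may be technical alone.

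ERBB proteins and MET are receptor tyrosine kinases of the epithelial cell surface. The EGF-family ligands are made as membrane-anchored precursors and released by proteases, after which AREG, EREG, TGFA, HBEGF, BTC and EPGN bind EGFR, and some of them also bind ERBB4. Ligand-bound receptors pair up, phosphorylate each other and signal through the RAS, ERK and PI3K relays, while MET answers to hepatocyte growth factor. Cells that make both a ligand and its receptor can stimulate themselves, and AREG and EREG are among the EGFR ligands best known in colorectal cancer. AREG is also a known target gene of YAP, the coactivator named in the series title.

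Amphiregulin mRNA (AREG) was the most abundant of the 10 in both groups, and MET was the most abundant receptor mRNA. None of the 9 members expressed highly enough to be tested differed between the MST3 and vector libraries by limma over all genes. EGFR and TGFA had their 3 lowest values in the 3 MST3 libraries, with means lower by 12.8% and 14.2% of the mean FPKM (fragments per kilobase of gene, scaled for each library), and neither passed the test. On the log2(FPKM + 1) scale the 95% intervals of all 9 differences were within 0.5 of 0, from a lowest bound of -0.48 for MET to a highest of 0.37 for ERBB2. With a single library left out the lower bounds of MET, EREG and TGFA reached -0.59, -0.59 and -0.55, each without vector replicate 1. Across all 13036 tested genes, 74.4% had an interval within that bound.

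The libraries were of similar depth, with MST3 replicate 1 the lowest. Reads recovered from the FPKM values came to 15289213 in MST3 replicate 1 and to 17178700 to 17708029 in the others. Genes with reads numbered 27442 in MST3 replicate 1 and 25099 to 25501 in the others. STK24, the overexpressed gene, had a mean of 17.3 ± 0.161 FPKM in the controls and 70.7 ± 6.3 FPKM with the plasmid (SD, n = 3 per group; exact two-sided permutation p = 0.1, the smallest that 3 against 3 allow), and it was the only gene of all those tested to pass by limma (adjusted p = 0.000998). Of 11 colon epithelial markers 6 averaged at least 1 FPKM, led by KRT19, KRT8, KRT18, EPCAM and CDH1, with CDX2 at 3.27 FPKM in vector libraries. VIL1, LGALS4, KRT20 and CDH17 averaged under 1 FPKM and CDX1 was listed at 0 in all 6. The 13 markers of other cell types summed to 4.72 to 4.99 FPKM in vector and 4.56 to 5.58 in MST3 libraries, and most of that was COL1A1. MST3 replicate 1 stood farthest apart in relation to gene length. Its median deviation from the gene mean was 0.10 (log2) for the shortest 25% of tested genes and -0.08 for the longest 25%, which start at 6990 bp. MST3 replicate 3 deviated in the same direction, at 0.04 and -0.05. The vector libraries and MST3 replicate 2 had the opposite signs, so the trend ran partly along the groups. They lay between -0.06 and -0.02 for the shortest and between 0.02 and 0.06 for the longest. Since RNA was taken from whole cultures, fewer expressing cells and less RNA per cell cannot be told apart.

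**Figure D1:**
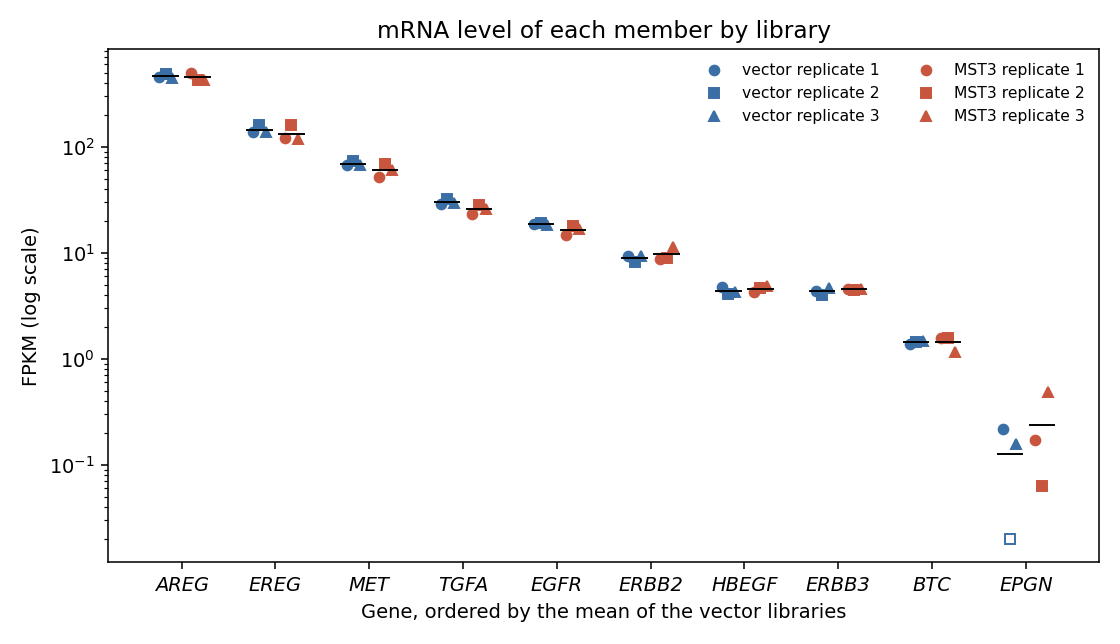
FPKM (log axis) of the 10 genes in each library, blue for vector and red for MST3, with a marker shape for each replicate number and a black bar at each group mean; the open square is EPGN at 0 in vector replicate 2, drawn at the foot of the axis. The order runs from AREG at a mean of 462 FPKM in vector libraries to EPGN at 0.126, and the groups lie close together for every gene but EPGN, whose values run from 0 to 0.482 FPKM.

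The levels, which as FPKM are per gene length, formed a clear order. By the mean of the vector libraries it ran AREG (462 FPKM), EREG (145), MET (69.4), TGFA (29.9), EGFR (18.8), ERBB2 (8.9), HBEGF (4.37), ERBB3 (4.33), BTC (1.44) and EPGN (0.126). Each gene exceeded the next one in every one of the 6 libraries, except that HBEGF and ERBB3 overlapped. AREG ranked 51st and EREG 176th of 19951 protein-coding genes by that mean, MET 449th, TGFA 1218th and EGFR 2129th. BTC ranked 10258th and EPGN 13300th.

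Among the receptors, EGFR, the founding ERBB receptor (ENSG00000146648; chromosome 7, 55019021 to 55211628, plus strand, GRCh38), had 18.8, 19.2 and 18.4 FPKM in vector replicates 1 to 3. It had 14.6, 17.7 and 16.8 FPKM in MST3 replicates 1 to 3. All 3 MST3 values lay below the lowest vector value, and MST3 replicate 1 lay farthest below. The means were 18.8 ± 0.405 and 16.4 ± 1.58 FPKM (SD, n = 3), and the log2 difference was -0.19 (SE 0.09, 95% interval -0.41 to 0.02; adjusted p = 0.719 by limma). The values rested on 2923 to 4137 reads per library. The difference was -0.12 both without MST3 replicate 1 and with the length trends of the libraries taken out. Without MST3 replicate 2 it was -0.25 (unadjusted p = 0.0288, adjusted p = 0.228 by limma). Without a filter on the level it stayed at -0.19 (unadjusted p = 0.0493, adjusted p = 0.781 by limma). With length and GC trends both taken out the difference was -0.11. The part of these trends in the result was not otherwise tested. Exons of EGFR-AS1, an antisense gene at 0.226 FPKM in vector libraries, overlap 186 bp of EGFR exons, and the strand setting of the counting is not given in the sources used here.

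MET, the receptor of hepatocyte growth factor (ENSG00000105976; chromosome 7, 116672390 to 116798386, plus strand), had 66.7, 73.9 and 67.5 FPKM in vector replicates 1 to 3. It had 52.3, 68.8 and 59.9 FPKM in MST3 replicates 1 to 3. MST3 replicates 1 and 3 lay below every vector library and MST3 replicate 2 lay among them, so the groups overlapped. With means of 69.4 ± 3.95 and 60.3 ± 8.25 FPKM (SD, n = 3), the log2 difference was -0.21 (SE 0.12, 95% interval -0.48 to 0.07; adjusted p = 0.719 by limma). Leaving out MST3 replicate 1 gave -0.11, as against -0.30 on leaving out MST3 replicate 2 (unadjusted p = 0.0246, adjusted p = 0.223). With length trends taken out it was -0.16, and with length and GC trends both taken out it was -0.10. MET took 64.7% to 70.2% of the summed FPKM of the 4 receptors across the libraries, and EGFR 17.7% to 18.9%.

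ERBB2, also called HER2, has no known ligand and acts as a partner of the other ERBB receptors. Its gene (ENSG00000141736; chromosome 17, 39687914 to 39730426, plus strand) had 9.3, 8.16 and 9.25 FPKM in vector replicates 1 to 3. It had 8.78, 9 and 11.3 FPKM in MST3 replicates 1 to 3. MST3 replicate 3 was the highest of the 6 and the other MST3 libraries lay within the vector range. The log2 difference was 0.11 (SE 0.11, 95% interval -0.16 to 0.37; adjusted p = 0.775 by limma), from means of 8.9 ± 0.647 and 9.7 ± 1.41 FPKM (SD, n = 3). Without MST3 replicate 3 the difference was 0.00, and without vector replicate 2 it was 0.05. Exons of MIEN1 (571 bp, 7.11 FPKM in vector libraries) and PGAP3 (194 bp, 1.85 FPKM) on the minus strand overlap those of ERBB2, so its level is uncertain to the extent that such reads were shared.

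ERBB3, whose kinase domain is nearly inactive and which signals by pairing with ERBB2 (ENSG00000065361; chromosome 12, 56076799 to 56103505, plus strand), had 4.35, 4.02 and 4.61 FPKM in vector replicates 1 to 3. It had 4.56, 4.42 and 4.57 FPKM in MST3 replicates 1 to 3, all within the vector range. The log2 difference was 0.05 (95% interval -0.13 to 0.23; adjusted p = 0.837 by limma), or 0.011 without vector replicate 2 and 0.09 without vector replicate 3. EGFR and MET stood at -0.34 and -0.40 on the log2(FPKM + 1) scale in MST3 replicate 1, relative to the vector mean. ERBB2 and ERBB3, whose deposited lengths of 10321 and 9039 bp are also among the longest 25% of genes, stood at -0.02 and 0.06 in that library. The relation of these values to gene length was not tested.

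**Figure D2:**
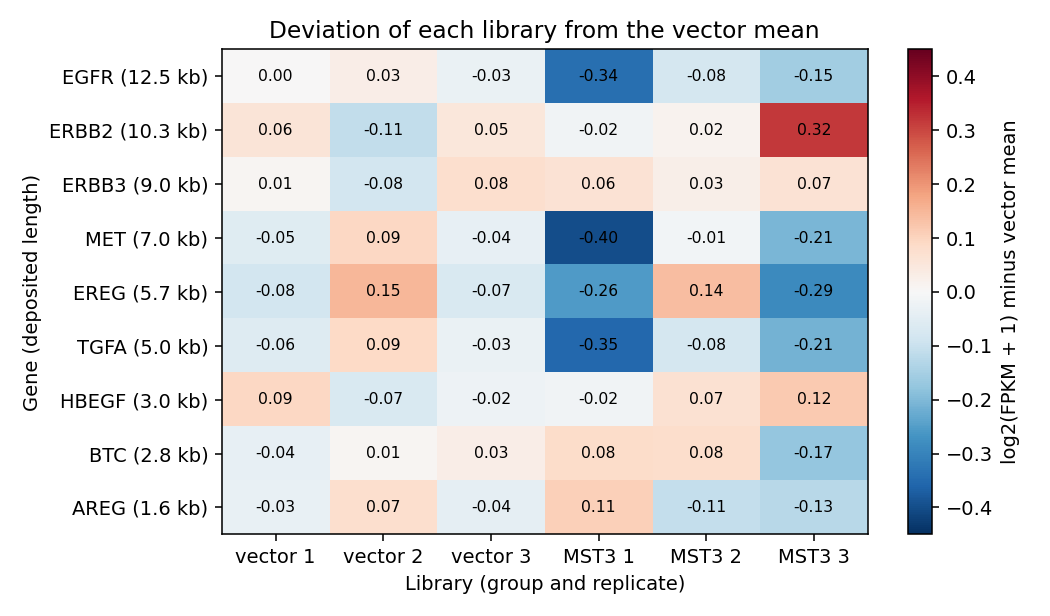
Each cell gives log2(FPKM + 1) of a gene in a library minus the mean of the 3 vector libraries, with genes ordered by deposited length and EPGN left out; blue is lower and red is higher. EGFR, MET, EREG and TGFA are between -0.26 and -0.40 in MST3 replicate 1, whereas AREG is at 0.11 and ERBB2 reaches 0.32 in MST3 replicate 3.

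AREG, EREG, BTC and EPGN lie together on chromosome 4, within 486214 bp, in the order EPGN, EREG, AREG and BTC, with BTC on the opposite strand. They were expressed at very different levels, and their promoters are therefore shown, each as 250 bases before and 50 after a RefSeq start site (GRCh38.p14), on the strand of the gene. Capitals mark matches to 4 motifs searched on both strands, namely GGAATG (bound by TEAD, the DNA-binding partner of YAP), TGANTCA (AP-1), TGACGTCA (the cAMP response element, CRE) and TATAAA (the TATA box).
AREG, chr4:74444886-74445185, plus strand: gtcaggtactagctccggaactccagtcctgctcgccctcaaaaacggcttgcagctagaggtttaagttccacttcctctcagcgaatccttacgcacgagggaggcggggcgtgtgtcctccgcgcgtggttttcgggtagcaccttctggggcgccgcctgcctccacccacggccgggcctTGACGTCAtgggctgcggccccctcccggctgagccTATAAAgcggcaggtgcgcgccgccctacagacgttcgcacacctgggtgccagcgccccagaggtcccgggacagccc
EREG, chr4:74364895-74365194, plus strand: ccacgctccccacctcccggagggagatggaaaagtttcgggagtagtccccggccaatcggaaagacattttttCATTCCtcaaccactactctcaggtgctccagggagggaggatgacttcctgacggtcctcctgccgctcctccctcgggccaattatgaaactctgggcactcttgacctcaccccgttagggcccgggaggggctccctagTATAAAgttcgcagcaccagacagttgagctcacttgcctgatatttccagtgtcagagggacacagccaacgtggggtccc
EPGN, chr4:74308220-74308519, plus strand: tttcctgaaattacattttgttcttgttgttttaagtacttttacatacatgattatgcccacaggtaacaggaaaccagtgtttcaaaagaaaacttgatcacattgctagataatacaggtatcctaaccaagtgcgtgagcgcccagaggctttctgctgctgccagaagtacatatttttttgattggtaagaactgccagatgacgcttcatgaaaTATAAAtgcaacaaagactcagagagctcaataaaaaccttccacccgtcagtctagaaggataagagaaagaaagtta
BTC, chr4:74794474-74794773, minus strand: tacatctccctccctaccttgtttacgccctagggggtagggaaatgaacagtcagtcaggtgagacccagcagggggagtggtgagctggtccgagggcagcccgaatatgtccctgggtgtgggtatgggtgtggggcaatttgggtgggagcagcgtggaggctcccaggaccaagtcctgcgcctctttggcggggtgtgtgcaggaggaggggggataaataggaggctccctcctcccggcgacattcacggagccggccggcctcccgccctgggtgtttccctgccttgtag
The AREG window held a CRE whose first base is 65 bases before the start site and a TATA box at 29 bases before it. The EREG window held a TATA box at 32 bases before the start and the TEAD letters, on the minus strand, at 175 bases before it. EPGN, the lowest of the group, held a TATA box at 29 bases before its start, and BTC held none of the 4. The GC box (GGGCGG), also searched and not capitalised, had 1 match each in AREG and BTC, and 45% of all windows held it. Of 35116 RefSeq promoter windows of this length 14% held the TEAD letters, 7.71% the AP-1 letters, 1.85% the CRE and 11.5% the TATA letters. A match is a description of these letters and was not tested for binding. The GC content was 66.3% for AREG, 57.7% for EREG, 63% for BTC and 37.7% for EPGN, against a median of 58.7% over all windows. In the same table EGFR and TGFA had 2 windows each, and ERBB2, MET and HBEGF had 1 each, so that 9 of the 10 genes matched (all but ERBB3).

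**Figure D3:**
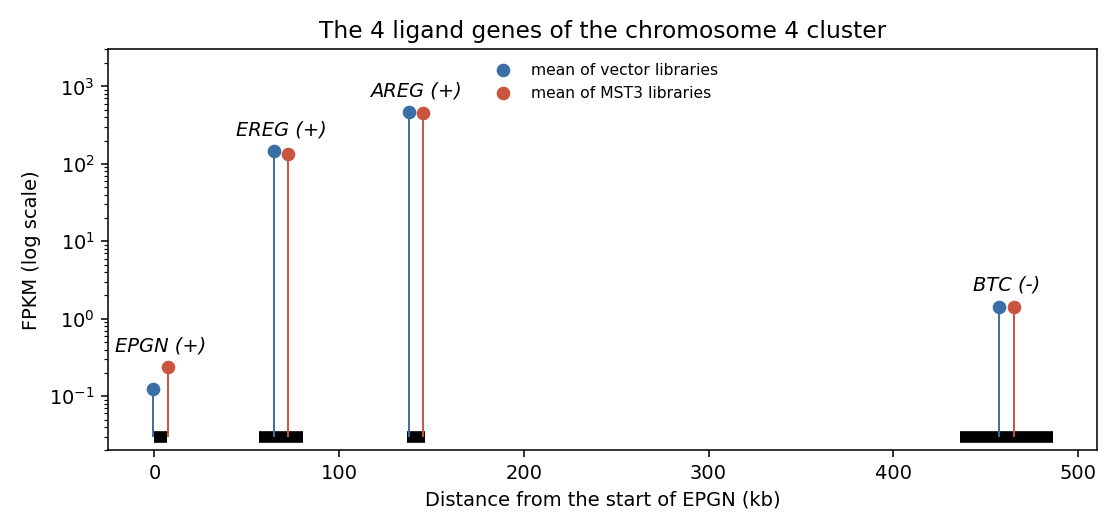
Mean FPKM (log axis) of the 4 ligand genes in vector (blue) and MST3 (red) libraries, placed by distance in kb from the start of EPGN, with black bars for the gene bodies and the strand in brackets. EREG and AREG, next to each other, stand above 100 FPKM in both groups, with BTC at 1.44 and EPGN at 0.126 to 0.24 FPKM on either side.

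AREG (ENSG00000109321; chromosome 4, 74445134 to 74455009, plus strand), which encodes amphiregulin, had 451, 486 and 449 FPKM in vector replicates 1 to 3. It had 498, 429 and 423 FPKM in MST3 replicates 1 to 3. The highest and the lowest values were both in the MST3 group. The means were 462 ± 21.1 and 450 ± 41.6 FPKM (SD, n = 3), and the log2 difference was -0.04 (SE 0.10, 95% interval -0.28 to 0.20; adjusted p = 0.911 by limma). Without MST3 replicate 1, in which it was highest, the difference was -0.12 and the groups no longer overlapped (unadjusted p = 0.204 by limma). With length trends taken out the difference was -0.11, and with length and GC trends taken out it was -0.03. Every library held 11946 to 13735 AREG reads, for which counting error alone gives a coefficient of variation of 0.883%, while that between libraries was 4.57% in vector and 9.25% in MST3.

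EREG, encoding epiregulin (ENSG00000124882; chromosome 4, 74365143 to 74388751, plus strand), had 137, 161 and 138 FPKM in vector replicates 1 to 3. It had 121, 160 and 119 FPKM in MST3 replicates 1 to 3. Replicate 2 was the highest in each group, and MST3 replicates 1 and 3 were the lowest of the 6. The log2 difference was -0.13 (SE 0.14, 95% interval -0.46 to 0.19; adjusted p = 0.774 by limma), from means of 145 ± 13.4 and 133 ± 23 FPKM (SD, n = 3). It was -0.07 without MST3 replicate 1, -0.06 without MST3 replicate 3 or vector replicate 2, -0.05 with length and GC trends taken out, and -0.27 without MST3 replicate 2 (unadjusted p = 0.0446, adjusted p = 0.25). AREG took 68.8% to 76.8% and EREG 18.7% to 25.6% of the summed FPKM of the 6 ligands.

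TGFA, encoding transforming growth factor alpha (ENSG00000163235; chromosome 2, 70447280 to 70554193, minus strand), had 28.7, 31.8 and 29.2 FPKM in vector replicates 1 to 3. It had 23.1, 28.2 and 25.6 FPKM in MST3 replicates 1 to 3. The groups did not overlap, with a gap of under 1 FPKM between MST3 replicate 2 and vector replicate 1. The means were 29.9 ± 1.68 and 25.7 ± 2.53 FPKM (SD, n = 3), and the log2 difference was -0.22 (SE 0.10, 95% interval -0.45 to 0.02; unadjusted p = 0.0634, adjusted p = 0.719 by limma). Without MST3 replicate 1 it was -0.15, as against -0.28 without MST3 replicate 2 (unadjusted p = 0.0206, adjusted p = 0.219 by limma). Without a filter on the level it stayed at -0.22 (unadjusted p = 0.0462, adjusted p = 0.781 by limma). With length trends taken out it was -0.20, and with length and GC trends taken out it was -0.15.

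HBEGF encodes heparin-binding EGF-like growth factor (ENSG00000113070; chromosome 5, 140332843 to 140346631, minus strand). It had 4.71, 4.12 and 4.27 FPKM in vector replicates 1 to 3. In MST3 replicates 1 to 3 it had 4.3, 4.62 and 4.81 FPKM, which overlapped the vector range. The log2 difference was 0.06 (95% interval -0.14 to 0.25; adjusted p = 0.837 by limma), or 0.022 without vector replicate 2, 0.10 if vector replicate 1 is left out and 0.025 if MST3 replicate 3 is. BTC, encoding betacellulin (ENSG00000174808; chromosome 4, 74744759 to 74794686, minus strand), had 1.37, 1.45 and 1.49 FPKM in vector replicates 1 to 3. In MST3 replicates 1 to 3 it had 1.58, 1.57 and 1.16 FPKM, the highest and lowest of the 6 libraries. Its log2 difference was -0.00 (95% interval -0.29 to 0.28; adjusted p = 0.995 by limma), from 56 to 77 reads per library.

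EPGN encodes epigen (ENSG00000182585; chromosome 4, 74308473 to 74315307, plus strand). It averaged 0.183 FPKM over the 6 libraries, under the minimum of 1, and was not tested. Its reads numbered 7, 0 and 5 in vector replicates 1 to 3 and 5, 2 and 15 in MST3 replicates 1 to 3. The largest value was in MST3 replicate 3, at 0.482 FPKM, and the others overlapped. A count of 0 allows up to 3 reads with counting error alone, which for this gene is at most about 0.104 FPKM in any of the 6 libraries.

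Of the 9 tested members 0 passed an adjusted p under 0.05 (0.00767% of all tested genes did, that is STK24 alone), and 0 had an unadjusted p under 0.05, where 5.38% of tested genes did. By voom on the recovered reads 0 passed as well, and 0 had an unadjusted p under 0.05. EGFR and TGFA, 2 of 9, were lower without overlap, where 6.7% of tested genes were, and 0 of 9 were higher without overlap, where 5.19% were. The log2(FPKM + 1) difference was negative for 6 of 9 members, including BTC at -0.00, against 53.4% of tested genes, and the members' median difference was -0.04 beside -0.01 over all tested genes. Without MST3 replicate 1 the members lower without overlap were AREG, TGFA and EGFR, where 9.67% of tested genes were. Without MST3 replicate 2 they were EREG, MET, TGFA and EGFR, where 24% of tested genes were. Without any one of the other libraries they were TGFA and EGFR, where 8.68% to 14.5% of tested genes were. Some of these settings also put a member higher without overlap. These were HBEGF without vector replicate 1 (9.02% of tested genes), ERBB3 without vector replicate 3 (9.5%) and BTC without MST3 replicate 3 (10.4%).

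**Figure D4:**
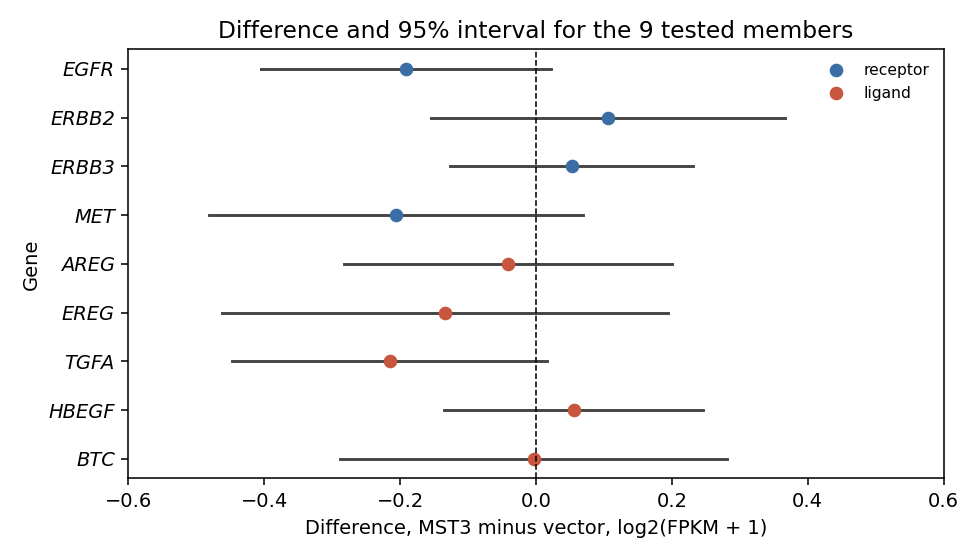
Difference of MST3 minus vector on the log2(FPKM + 1) scale (points, blue for receptors and red for ligands) with its 95% interval by limma (lines) for the 9 tested members. Every interval includes 0, with EGFR (-0.41 to 0.02) and TGFA (-0.45 to 0.02) closest to leaving it.

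Other genes of the pathway were taken from a list of 92, of which 77 were tested and 0 passed in either direction (smallest adjusted p = 0.719 by limma; 1 higher and 2 lower at an unadjusted p under 0.05, where 5.38% of all tested genes were). The mean on the log2(FPKM + 1) scale, on which lower and higher means are counted here, was lower for 54 of the 77, with a median of -0.05, against 53.4% of all tested genes. It was lower for 45 of the 77 without MST3 replicate 1 and for 42 with length trends taken out. The count was 49 with length and GC trends taken out, 50 with median-of-ratios factors, 51 by voom and 54 with the replicate block. The 53.4% is from the main fit, and its counterpart in these settings is not given here. Among the other receptors and ligands of these families only MST1R, the MET-related receptor also known as RON, was tested, at 13 ± 0.268 and 12.7 ± 1.9 FPKM (SD, n = 3). ERBB4, EGF and NRG1 averaged under 0.1 FPKM in each group and NRG4 0.194 and 0.199 FPKM. NRG2 averaged 0.551 and 0.509 FPKM, and MST1, which encodes the ligand of RON and not a kinase, 0.403 and 0.423. HGF, the ligand of MET, and NRG3 were listed at 0 in all 6 libraries.

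Of 12 tested genes for ligand release and activation, 6 had higher and 6 lower means. ADAM17, the main sheddase of AREG, TGFA and HBEGF, had 7.28 ± 0.499 and 6.53 ± 0.672 FPKM (SD, n = 3). ADAM10, a related sheddase that cleaves BTC, had 11.7 and 11.4 FPKM. SPINT2, an inhibitor of the proteases that activate hepatocyte growth factor, had 58.7 ± 2.63 and 69.6 ± 8.83 FPKM (SD, n = 3; log2 difference 0.23, 95% interval -0.03 to 0.50). PLAU, the urokinase protease, had 9.12 and 9.55 FPKM.

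Receptor inhibitors and degradation genes had 11 of 16 lower means, with a median of -0.10. CBL, the ubiquitin ligase that marks active EGFR and MET for degradation, had 24.2, 25.9 and 23.6 FPKM in vector replicates 1 to 3. In MST3 replicates 1 to 3 it had 17.2, 22.7 and 20.8 FPKM, all below the vector libraries (log2 difference -0.27, 95% interval -0.54 to -0.01; unadjusted p = 0.0435, adjusted p = 0.719 by limma). Leaving out MST3 replicate 1, or taking out length and GC trends, brought the CBL difference to -0.17, and taking out length trends alone to -0.20. SOCS5, which promotes EGFR turnover, had 6.12 ± 0.361 and 5.14 ± 0.476 FPKM (SD, n = 3; unadjusted p = 0.0421, adjusted p = 0.719 by limma). Its log2 difference was -0.22, or -0.17 with length trends taken out (unadjusted p = 0.0682 by limma). With length and GC trends taken out it was -0.11 (unadjusted p = 0.277 by limma). EPS15, an endocytic adaptor, had 11.5 and 9.86 FPKM. In this role 5 of 16 genes were lower without overlap, the most of any role, where 6.7% of all tested genes were. The other roles had 0 to 2 such genes. Over the 77 tested genes of the list 9 were lower and 2 higher without overlap, beside 6.7% and 5.19% of all tested genes.

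Adaptors had 10 of 13 lower means. SOS2, an exchange factor for RAS, had 3.67 ± 0.101 and 3.07 ± 0.32 FPKM (SD, n = 3), PTPN1, a phosphatase acting on receptor tyrosine kinases, had 22.9 and 20.7, and SHC1, an adaptor that links receptors to GRB2, had 36.7 and 40.5. In the RAS and ERK relay, where 10 of 13 had lower means, HRAS had 17.9, 16.6 and 17.9 FPKM in vector replicates 1 to 3. In MST3 replicates 1 to 3 HRAS had 24.7, 20 and 24.8 FPKM, all above the vector libraries (log2 difference 0.38, 95% interval 0.14 to 0.63; adjusted p = 0.719 by limma). With length trends taken out the HRAS difference was 0.32, and with length and GC trends taken out it was 0.20. The PI3K and AKT relay split into 4 higher and 5 lower, with AKT1 at 13.2 and 15 FPKM, AKT2 at 5.99 and 6.91 and PIK3CA at 3.73 and 3.24.

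Among genes that ERK signalling induces, 11 of 13 had lower means, with a median of -0.11. EGR1, an immediate early transcription factor, had 266, 271 and 241.3 FPKM in vector replicates 1 to 3. In MST3 replicates 1 to 3 EGR1 had 191, 223 and 240.8 FPKM, so that the groups were apart by under 1 FPKM (log2 difference -0.25, 95% interval -0.52 to 0.02; adjusted p = 0.719 by limma). IER3, another early response gene, had 922 and 773 FPKM, and DUSP5, a phosphatase that inactivates ERK, had 171 and 145. Without MST3 replicate 1 the log2 difference was -0.16 for EGR1, -0.12 for IER3 (from -0.27) and -0.09 for DUSP5 (from -0.26). With length trends taken out these were -0.28, -0.35 and -0.30, and with length and GC trends taken out -0.31, -0.40 and -0.34. MST3 replicate 1 was the lowest of the 6 libraries for EGR1, IER3 and DUSP5, which were named for the smallest p in this role. Of the members it was the lowest only for EGFR, MET and TGFA. The share of all tested genes that were lowest in that library is not given here, and a relation between these genes was not tested.

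**Figure D5:**
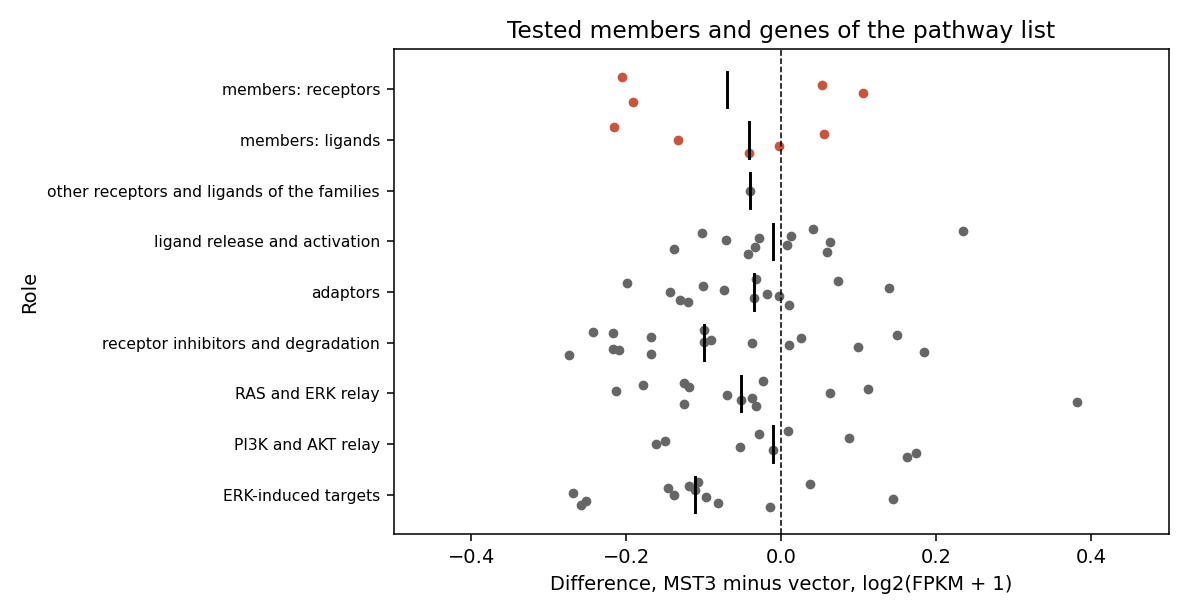
Difference of MST3 minus vector on the log2(FPKM + 1) scale for each tested member (red) and each tested gene of the pathway list (grey) by role, with a black bar at the median of each role. The points lie between -0.27 and 0.38, the highest being HRAS, and 0 of them passed the test.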

How the data were processed

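The authors deposited 1 table of FPKM values with a column for each of the 6 libraries. HISAT2 is named per the submitters' processing notes. No version of it is given in the sources used here, nor a counter, strand setting, build or annotation. All 58735 entries with Ensembl identifiers have the positions of GENCODE 29 on GRCh38, so that build is used. Multiplied by gene length, 100% of a library's FPKM values came to whole multiples of a step, within 0.01 reads, which gave the reads behind them.

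Differences on the log2(FPKM + 1) scale were fitted with limma (version 3.58.1, R 4.3.3; eBayes with trend). The fit took in 13036 genes averaging 1 FPKM or more over the 6 libraries, with Benjamini-Hochberg adjustment over all of them and a threshold of 0.05, two-sided. The fold on this scale understates changes of low genes. Voom in limma was run on the recovered reads with library sizes scaled by trimmed means of M values. The fit was tested on simulated data. Alternatives covered the pseudocount, filters, scaling, the replicate block, voom, length trends (splines with 3 degrees of freedom) and each library left out. Removal of length and GC trends together, and overlap counts with a library left out, were added after seeing the data. The members and lists were chosen with earlier results of these data known. Named were all 10 members, STK24 and, from each role of the pathway list, the 3 tested genes with the smallest p, with untested family genes given as levels. Some genes that this rule takes are not reported here. ADAM10, overlapping genes and markers were named after their values were seen. Plots used Python 3.11.15 and matplotlib 3.10.9. Promoter sequences are from RefSeq (GRCh38.p14).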

Additional observations from a re-analysis of the deposited data

How the results depend on the processing

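Over 14 alternatives 1 gene, STK24, passed in each, and 0 of 126 values for the 9 tested members passed (smallest adjusted p = 0.219, TGFA without MST3 replicate 2). Of these values 7 changed sign, all for AREG and BTC. The BTC difference was 0.0099 with median-of-ratios factors, 0.0029 by voom and 0.048 with length and GC trends removed, and it ranged from -0.047 to 0.081 with a library left out. AREG ranged from -0.12 to 0.0011 and MST1R, of the pathway list, from -0.15 to 0.034 with a library left out. Deviations of the same-numbered libraries had correlations across genes of 0.0158, 0.226 and 0.035 for replicates 1 to 3. Vector replicate 1 correlated better with MST3 replicate 3 (0.122), so the numbers were not used as pairs. With the replicate block TGFA had an unadjusted p = 0.0325 (adjusted p = 0.482), its difference being -0.22 as before, and 1 gene passed in all. The count of members at an unadjusted p under 0.05 was 4 without MST3 replicate 2, 2 without a filter and 1 with the block. The 5.38% of tested genes at that p is from the main fit, and its counterpart in these settings is not given here. Without MST3 replicate 2, 24% of all tested genes were lower without overlap, as against 6.7% with all 6 libraries. Depth limits EPGN and BTC most, with counting errors of 42% and 12%.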

Other observations

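The summed FPKM of the 6 ligands divided by that of the 4 receptors was 6.27, 6.5 and 6.24 in vector replicates 1 to 3. It was 8.07, 6.23 and 6.2 in MST3 replicates 1 to 3, so MST3 replicate 1 was the highest and the other MST3 libraries were just below the vector range. The ratio of AREG to EREG was 3.3, 3.03 and 3.25 in vector replicates 1 to 3. It was 4.11, 2.69 and 3.57 in MST3 replicates 1 to 3, whose spread was the wider. The ratio of MET to EGFR stayed between 3.55 and 3.88 in all 6 libraries, MST3 replicate 1 included (3.57), although both genes were lowest in that library. In MST3 replicate 1 the median deviation (log2) was 0.10 for the shortest group of tested genes described above and -0.08 for the longest. The deposited length is 1648 bp for AREG, which made up most of the ligand sum, and 5717 bp for EREG. The receptors run from 7039 bp (MET) to 12521 bp (EGFR). The ratios were taken from FPKM without removal of length trends, and the part of these trends in them was not tested. All 3 kinds of ratio were computed after the values were seen and were not tested between the groups.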
